A study of Mus musculus with 9 samples.

Results

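The genes described here are 9 transcripts used as markers of lymphocytes in mouse liver. They are Cd3e, Cd3d, Cd4, Cd8a, Cd8b1 and Foxp3 for T cells, and Nkg7, Gzma and Klrb1c for cytotoxic lymphocytes and natural killer (NK) cells. They were taken by gene symbol from a count table of 55401 genes, and all 9 were found once. None of the 9 is a B cell gene, so B cells are described below from a separate list. The count test covered 15717 genes with enough counts. Cd8b1 and Klrb1c fell under that limit and are too low to test, which left 7 of the 9 for testing.

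The data are bulk RNA-seq of whole livers from 9 female mice, 3 per group. Hepatocellular carcinoma (HCC) was raised by tail-vein injection of plasmids for activated AKT (myr-AKT) and mutant RAS (NrasV12), together with the sleeping beauty transposase, in mice aged 6 weeks. At 1 week after the oncogenes, untreated HCC mice received a blank AAV8 virus and miR-22-treated mice received AAV8-miR-22, in which a CMV promoter drives the microRNA. HCC livers were taken at 5 weeks after the oncogenes, 4 weeks after the virus. The third group is healthy liver, for which the labels give neither age nor injection, so oncogene, plasmid and virus cannot be told apart in a comparison with it. The labels name both C57BL/6 and FVB/N as the strain, and the study's methods give FVB/N for tumour-bearing and healthy mice alike. Nothing states more than that each library is a separate liver, so p-values measure the spread between these livers.

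T cells recognise antigen through a receptor whose signal passes through the CD3 chains, and their CD4 or CD8 co-receptor divides helper from cytotoxic cells. Cytotoxic T cells and NK cells kill through granules holding perforin and granzymes, while regulatory T cells, defined by the factor FOXP3, restrain the other lymphocytes. The liver is known for a large resident pool of NK and other innate lymphocytes, and T cells entering a liver tumour can be active, exhausted or suppressive. In whole tissue, fewer cells of a type and less RNA per cell cannot be told apart.

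The treatment is itself a short RNA, and its sequence is shown because its seed (bases 2 to 8, in capitals) can be searched for in the 9 genes. The mature sequence comes from RefSeq (GRCm38.p6). The 3′ untranslated regions (UTRs) come from GENCODE on GRCm39, 1 transcript per gene. The 7-letter match to the seed, GGCAGCT, was searched on the sense strand and stood once in 2 of the 9 genes, Cd8a and Foxp3, both shown 5′ to 3′ with the match in capitals. The printed windows lie at chr6:71355409-71355431 for Cd8a and chrX:7460924-7460946 for Foxp3, both on the plus strand. Of 20721 genes with a 3′ UTR, 2910 (14.0%) held at least 1 such match.
mmu-miR-22-3p: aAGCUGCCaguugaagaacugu
Cd8a 3′ UTR: tccttgtgGGCAGCTtccaagct
Foxp3 3′ UTR: tcatgcagGGCAGCTaggtactt
The counts of both genes are given below. Neither passed the test between miR-22-treated and untreated HCC, and a match of letters does not show a site that is used.

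Libraries held between 16664659 and 23908392 counts in all. Of these, the 9 markers together received between 96 and 133 counts per healthy liver, between 158 and 192 per untreated HCC, and between 103 and 223 per miR-22-treated HCC. After scaling to library size, CPM (a gene's counts relative to the scaled total of its library) summed over the 9 genes ran from 5.99 to 8.36 in healthy liver, from 7.17 to 8.19 in untreated HCC and from 6.57 to 10.6 in miR-22-treated HCC, so the groups overlapped. A single count was worth between 0.0374 and 0.0638 CPM. Markers of hepatocytes, the cells that make up most of a liver, summed to between 135000 and 140000 CPM in healthy liver, between 52400 and 66500 CPM in untreated HCC and between 81400 and 102000 CPM in miR-22-treated HCC. Markers of macrophages summed to between 662 and 765, between 4020 and 6830, and between 2420 and 3480 CPM in the same order. Nearly all of that rise was Spp1, the gene of osteopontin, which tumour and bile duct cells can also make (mean 26.8, 4620 and 2020 CPM). Without it, a sum formed after seeing the data, the macrophage markers ran from 638 to 733, from 752 to 831 and from 842 to 893 CPM, and Mrc1 and Timd4 of resident macrophages fell in untreated HCC (log2 fold changes -0.81 and -0.73). The part of these cell types in the lymphocyte values was not tested.

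**Figure D1:**
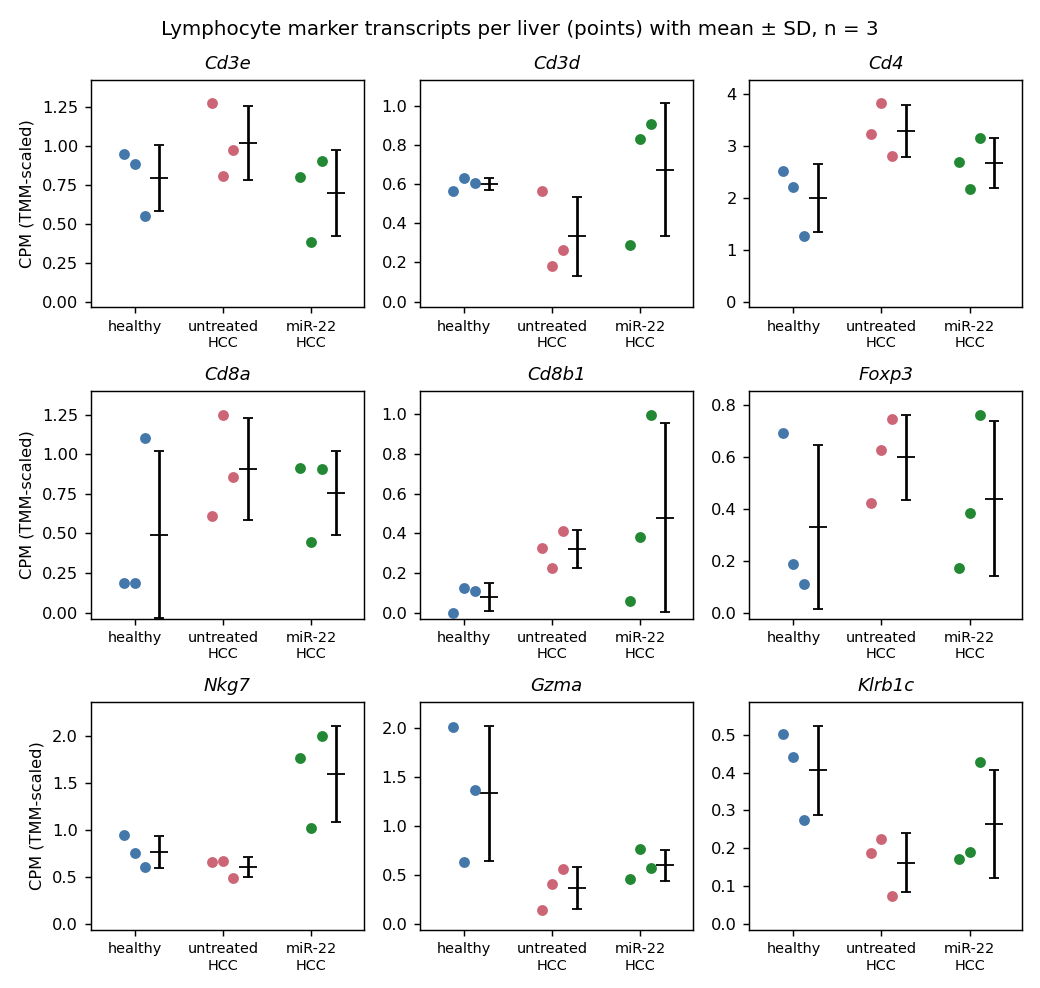
CPM scaled by TMM (vertical axes, each from about 0) for the 9 lymphocyte markers in every liver, by group. Points are single livers and the bar beside them is the mean ± SD of 3. Nkg7 in the miR-22-treated livers lies above every other liver, and Gzma in untreated HCC lies below every healthy liver.

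In untreated HCC against healthy liver, Gzma fell and Cd4 rose, while the CD3 chains, Cd8a, Foxp3 and Nkg7 did not pass the test. A gene was called when the adjusted p was under 0.05 and the fold change was over 1.5, the limits the study used. By that rule 2 of the 7 tested markers were called, where 40.8% of all tested genes were called. In single directions it was 1 higher and 1 lower, against 22.7% and 18.1% of all tested genes. The groups did not overlap for 3 of the 7 (Gzma, Cd4 and Cd3d), against 65.3% of all tested genes. The median log2 fold change of the 7 was 0.36, and that of all tested genes was 0.01.

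Cd3e and Cd3d encode 2 chains of the CD3 complex, through which every conventional T cell receptor signals. The genes are neighbours on chromosome 9, where 135 exon bases of Cd3e are shared with Gm48719 on the other strand. They are separated by 10863 bases and transcribed from opposite strands (Cd3e at chr9:44910037-44920925 and Cd3d at chr9:44893083-44899173, GRCm39). Cd3e had 15, 14 and 10 counts in the healthy livers, 27, 18 and 26 in untreated HCC, and 14, 6 and 19 in miR-22-treated HCC. Cd3d had 9, 10 and 11 counts in healthy liver, 12, 4 and 7 in untreated HCC, and 5, 13 and 19 in miR-22-treated HCC. The 2 chains stood in opposite order between healthy liver and untreated HCC: in CPM, Cd3e was 0.791 ± 0.212 and 1.01 ± 0.233 (SD, n = 3), and Cd3d was 0.600 ± 0.0324 and 0.334 ± 0.202. Neither difference passed the test. For Cd3e the log2 fold change was 0.36 with a 95% interval from -0.54 to 1.26, and for Cd3d it was -0.85 with an interval from -2.08 to 0.38. With miR-22 against untreated HCC the log2 fold changes were -0.51 (interval -1.42 to 0.39) for Cd3e and 1.02 (interval -0.18 to 2.22) for Cd3d, again in opposite directions and again not called.

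Other chains of the T cell receptor were not called either. Cd3g, the third CD3 chain encoded in the same family, had between 8 and 20 counts in healthy liver, between 21 and 33 in untreated HCC and between 20 and 29 in miR-22-treated HCC. After scaling the groups overlapped, at 0.44 to 1.26, 0.784 to 1.48 and 0.951 to 1.66 CPM in the same order. Cd247, the zeta chain of the complex, had between 4 and 17 counts in any liver. Trac and Trbc2, the constant regions of the receptor's alpha and beta chains, had 10, 8 and 17 and 17, 14 and 21 counts in healthy liver, and 21, 13 and 16 and 25, 18 and 23 in untreated HCC. With miR-22, Trac had 12, 6 and 14 counts and Trbc2 had 13, 21 and 18. None of these 4 genes was called in any of the 3 comparisons by edgeR's quasi-likelihood test with Benjamini-Hochberg adjustment, where the smallest adjusted p among them was 0.319.

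Cd4 encodes the co-receptor of helper and regulatory T cells, and in mice it is also made by some dendritic cells. It lies on chromosome 6 (chr6:124841655-124874758, GRCm39) and was the most counted of the 9 genes. Healthy livers had 40, 35 and 23 counts, untreated HCC had 69, 85 and 75, and miR-22-treated HCC had 47, 34 and 66. All 3 untreated HCC livers, at 2.80 to 3.81 CPM, lay above all 3 healthy livers, at 1.26 to 2.51 CPM, and the miR-22-treated livers, at 2.17 to 3.14 CPM, overlapped both. The rise in untreated HCC had a log2 fold change of 0.72 (SE 0.29, 95% interval 0.10 to 1.34), with an adjusted p of 0.0465 by edgeR's quasi-likelihood test with Benjamini-Hochberg adjustment. This call was weak. It was made in 8 of 16 fits, and it was lost in DESeq2 (adjusted p = 0.0594) and without healthy replicate 3, which had the fewest counts (log2 fold change 0.46, adjusted p = 0.191). The loss also came without healthy replicate 2 (adjusted p = 0.0704), untreated replicate 2 (0.0889) or untreated replicate 3 (0.146). Of 12 dendritic cell markers, 6 rose and 2 fell in the same comparison (66.7% called, against 40.8% of all tested genes). Their sums ran from 110 to 141 CPM in healthy liver and from 178 to 207 CPM in untreated HCC. The part of such cells in the Cd4 value was not tested. With miR-22 against untreated HCC, Cd4 had a log2 fold change of -0.29 (interval -0.89 to 0.31) and was not called.

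Cd8a and Cd8b1 encode the alpha and beta chains of the CD8 co-receptor of cytotoxic T cells. CD8 alpha is also made by some dendritic and innate lymphoid cells, whereas the beta chain is closer to conventional T cells. The genes lie 35323 bases apart on the same strand of chromosome 6 (Cd8a at chr6:71350411-71356157 and Cd8b1 at chr6:71299772-71315087, GRCm39). Cd8a had 3, 3 and 20 counts in healthy liver, 13, 28 and 23 in untreated HCC, and 16, 7 and 19 in miR-22-treated HCC. Healthy replicate 3 stood apart from the other healthy livers and inside the range of the tumour-bearing ones, so the groups overlapped. The log2 fold change of untreated HCC against healthy liver was 0.83 (95% interval -0.51 to 2.17) and was not called. Without healthy replicate 3 it was 2.22, with an adjusted p of 0.0136 in edgeR's quasi-likelihood test, so 1 library decided this result. The same held for miR-22-treated HCC against healthy liver, where Cd8a moved from 0.58 to 1.96 (adjusted p = 0.0443) without that liver.

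Cd8b1 was too low to test. It had 0, 2 and 2 counts in healthy liver, 7, 5 and 11 in untreated HCC, and 1, 6 and 21 in miR-22-treated HCC. Each untreated HCC liver had more counts than any healthy liver, while the miR-22-treated livers ranged from the healthy level to the highest value in the series. Summed over livers and scaled for depth, the 23 counts of untreated HCC against 4 of healthy liver give a ratio of 4.08 (95% interval 1.39 to 16.2), which covers counting error only and not the spread between mice. The 28 counts of miR-22-treated HCC against the same 4 give 6.46 (2.26 to 25.3), and against untreated HCC 1.58 (0.879 to 2.88). In a fit with no filter on low counts, the log2 fold changes were 1.94 (adjusted p = 0.125), 2.54 (0.0399, and 0.0862 in DESeq2) and 0.59 (0.694). Healthy replicate 3, high in Cd8a, had only 2 counts of Cd8b1.

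Foxp3 encodes the factor that defines regulatory T cells. It lies on the X chromosome (chrX:7439883-7461484, GRCm39), where its exons share bases with Ccdc22, Ppp1r3f and Gm36995 on the opposite strand and with Flicr on its own. The libraries did not keep strand, so reads in the shared stretches cannot be assigned to 1 gene with certainty. Healthy livers had 11, 3 and 2 counts, untreated HCC had 9, 14 and 20, and miR-22-treated HCC had 3, 6 and 16. Healthy replicate 1 lay within the untreated HCC range, and the 3 groups overlapped. The log2 fold change of untreated HCC against healthy liver was 0.88 (95% interval -0.58 to 2.35), that of miR-22-treated against untreated HCC was -0.42 (interval -1.79 to 0.96), and neither was called. Without healthy replicate 1 the first became 1.97, still short of the limit in edgeR's quasi-likelihood test. When 1 liver was left out the second ran from -1.12, without miR-22-treated replicate 4, to -0.05, without miR-22-treated replicate 2, and was not called.

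Gzma encodes granzyme A, a serine protease of cytotoxic granules that is abundant in liver NK cells. It lies on chromosome 13 (chr13:113230355-113237524, GRCm39). Healthy livers had 32, 10 and 25 counts, untreated HCC had 3, 9 and 15, and miR-22-treated HCC had 8, 12 and 12. In CPM the healthy livers held 2.01, 0.630 and 1.37, the untreated HCC livers held 0.141, 0.403 and 0.560, and the miR-22-treated livers held 0.458, 0.765 and 0.571. Every untreated HCC liver was below every healthy liver, though the gap between healthy replicate 2 and untreated replicate 4 was small, and the miR-22-treated livers overlapped both groups. Gzma fell by 1.82 on the log2 scale in untreated HCC (SE 0.54, 95% interval -2.99 to -0.64), with an adjusted p of 0.0118 by edgeR's quasi-likelihood test with Benjamini-Hochberg adjustment and 0.00948 in DESeq2. This was the steadiest call among the markers, made in 14 of 15 fits. It was lost without healthy replicate 1, the liver with the most Gzma, where the log2 fold change was -1.43 and the adjusted p was 0.0658. Against untreated HCC, the miR-22-treated livers had a log2 fold change of 0.65 (interval -0.60 to 1.91), and against healthy liver one of -1.16 (interval -2.31 to -0.02, adjusted p = 0.106), and neither was called.

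Klrb1c, which encodes the NK receptor that carries the NK1.1 antigen of C57BL/6 mice, was the other marker too low to test. It lies in the NK gene complex of chromosome 6 (chr6:128755448-128766178, GRCm39) among similar Klrb1 genes, and shares 413 exon bases with Gm44511, so reads that fit a near copy make its counts uncertain. Healthy livers had 8, 7 and 5 counts, untreated HCC had 4, 5 and 2, and miR-22-treated HCC had 3, 3 and 9. After scaling, every untreated HCC liver (0.0747 to 0.224 CPM) lay below every healthy liver (0.275 to 0.503 CPM), and miR-22-treated livers overlapped both. Summed over livers, 11 counts against 20 give a ratio of 0.390 (95% interval 0.169 to 0.854, counting error only), and miR-22-treated against untreated HCC gives 1.77 (0.761 to 4.27). In the fit with no filter the log2 fold change of untreated HCC against healthy liver was -1.30, with an adjusted p of 0.311 in edgeR's quasi-likelihood test.

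**Figure D2:**
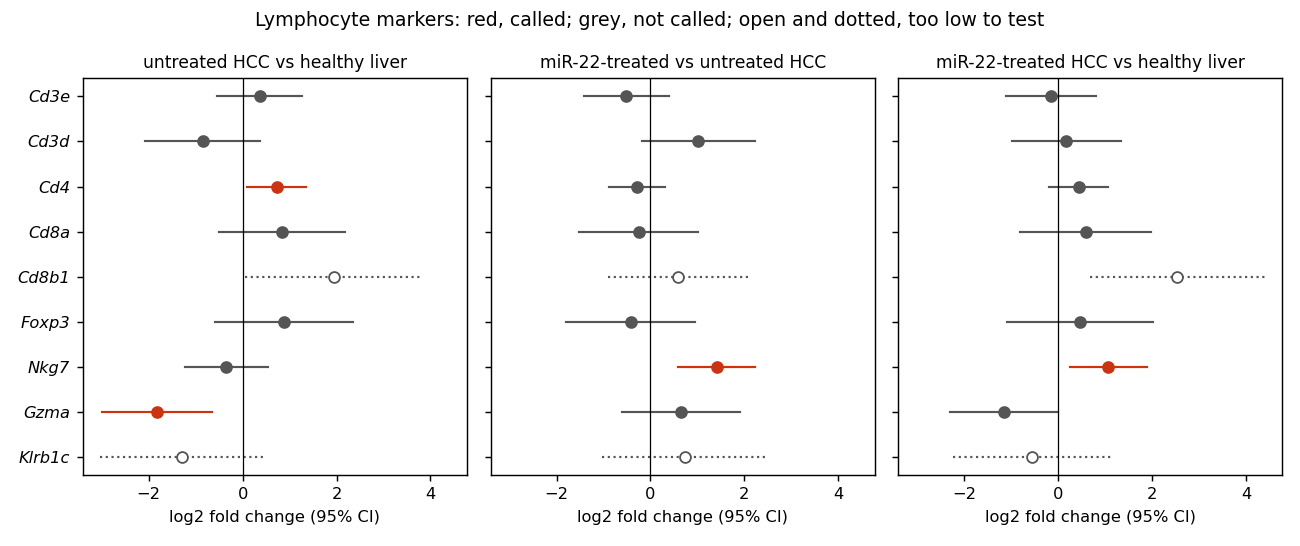
Log2 fold change with its 95% interval (horizontal axes) for each marker in the 3 comparisons. Red points were called, filled grey points were tested and not called, and open points with dotted intervals are Cd8b1 and Klrb1c, too low to test, from a fit with no filter. Gzma and Cd4 are red in the first comparison and Nkg7 in the other two.

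With miR-22, Nkg7 rose against both untreated HCC and healthy liver, and no other marker passed the test. In the comparison with untreated HCC 1 of the 7 tested markers was called and 1 did not overlap, where 13.8% of all tested genes were called (8.32% higher and 5.47% lower) and 39.3% did not overlap. Against healthy liver it was again 1 of 7 on both counts, where 24.0% of all tested genes were called (16.9% higher and 7.05% lower) and 48.8% did not overlap. The median log2 fold change of the 7 markers was -0.25 against untreated HCC and 0.43 against healthy liver, with medians over all tested genes of 0.00 and 0.02. Both comparisons use the same miR-22-treated livers.

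Nkg7 encodes a membrane protein of cytotoxic granules, made by NK cells and by activated CD8 T cells. It is a short gene on chromosome 7 (chr7:43086497-43087678, GRCm39). Healthy livers had 15, 12 and 11 counts, untreated HCC had 14, 15 and 13, and miR-22-treated HCC had 31, 16 and 42. In CPM these were 0.943, 0.756 and 0.604 in healthy liver, 0.656, 0.672 and 0.486 in untreated HCC, and 1.77, 1.02 and 2.00 in miR-22-treated HCC. The 3 miR-22-treated livers were the 3 highest of the series, with replicate 3 only slightly above the highest healthy liver. Against untreated HCC the log2 fold change was 1.41 (SE 0.38, 95% interval 0.59 to 2.23, adjusted p = 0.0174 by edgeR's quasi-likelihood test with Benjamini-Hochberg adjustment and 0.0186 in DESeq2). Against healthy liver it was 1.07 (SE 0.38, interval 0.24 to 1.90, adjusted p = 0.0444, and 0.0903 in DESeq2). The first call was made in 10 of 16 fits, with adjusted p from 0.00817 to 0.0634. It was lost by a small margin without untreated replicate 2 (adjusted p = 0.0521), 3 (0.0512) or 4 (0.0634), and without miR-22-treated replicate 2 (0.0577) or 4 (0.0624). The log2 fold change itself stayed between 1.22 and 1.64 when any 1 liver was left out. The second call was made in 6 of 16 fits and was lost without healthy replicate 1 (adjusted p = 0.0598), 2 (0.11) or 3 (0.149) and without miR-22-treated replicate 2 (0.115) or 4 (0.169).

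The other granule genes were not called or were too low to test. Gzmb, granzyme B, had 13, 17 and 20 counts in healthy liver, 15, 11 and 25 in untreated HCC and 20, 10 and 27 in miR-22-treated HCC, with a log2 fold change of 0.53 against untreated HCC (adjusted p = 0.374 in edgeR's quasi-likelihood test). Prf1, perforin, was too low to test at 15, 9 and 3, then 9, 9 and 13, then 18, 5 and 7 counts. Ncr1, the NK receptor NKp46, was too low as well, with between 2 and 16 counts in any liver. Ifng, the interferon of activated lymphocytes, had 0 to 2 counts in every liver.

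Compared per length, as CPM per kilobase of merged exons, Gzma (0.866) and Nkg7 (0.835) were the highest of the 9 markers in healthy liver and Cd8b1 (0.0356) the lowest. In untreated HCC Cd4 (0.730) and Nkg7 (0.658) led and Klrb1c (0.0507) was last. With miR-22, Nkg7 (1.74) led, followed by Cd4 (0.593) and Gzma (0.387), with Klrb1c (0.0826) last. Ptprc, the gene of the leukocyte antigen CD45, stood at 1.19, 1.91 and 1.93 CPM per kilobase in the same groups.

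Ratios within a liver do not depend on the scaling between livers. The count ratio of Cd8a plus Cd8b1 to Cd4 was 0.0750, 0.143 and 0.957 in healthy liver, 0.290, 0.388 and 0.453 in untreated HCC, and 0.362, 0.382 and 0.606 in miR-22-treated HCC, so healthy livers spanned both other groups. The ratio of Foxp3 to Cd3e plus Cd3d, regulatory over all T cells, was 0.458, 0.125 and 0.0952, then 0.231, 0.636 and 0.606, then 0.158, 0.316 and 0.421. Its geometric mean was highest in untreated HCC at 0.446, with 0.176 in healthy liver and 0.276 in miR-22-treated HCC, and the groups overlapped. The ratio of Gzma plus Nkg7 to Cd3e plus Cd3d was 1.96, 0.917 and 1.71 in healthy liver, 0.436, 1.09 and 0.848 in untreated HCC, and 2.05, 1.47 and 1.42 in miR-22-treated HCC. All 3 miR-22-treated livers lay above all 3 untreated ones in this ratio, while both groups overlapped healthy liver. Nkg7, called on its own between miR-22-treated and untreated HCC, is in the numerator, so this separation is not a separate result. Gzma, the other gene of the numerator, was not called there. Finally, Cd3e plus Cd3d over Ptprc was 0.0618 in healthy liver, 0.0363 in untreated HCC and 0.0371 in miR-22-treated HCC as geometric means, with ranges of 0.0502 to 0.0714, 0.0273 to 0.0515 and 0.0274 to 0.0546 that overlapped. These ratios are descriptions and were not tested.

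**Figure D3:**
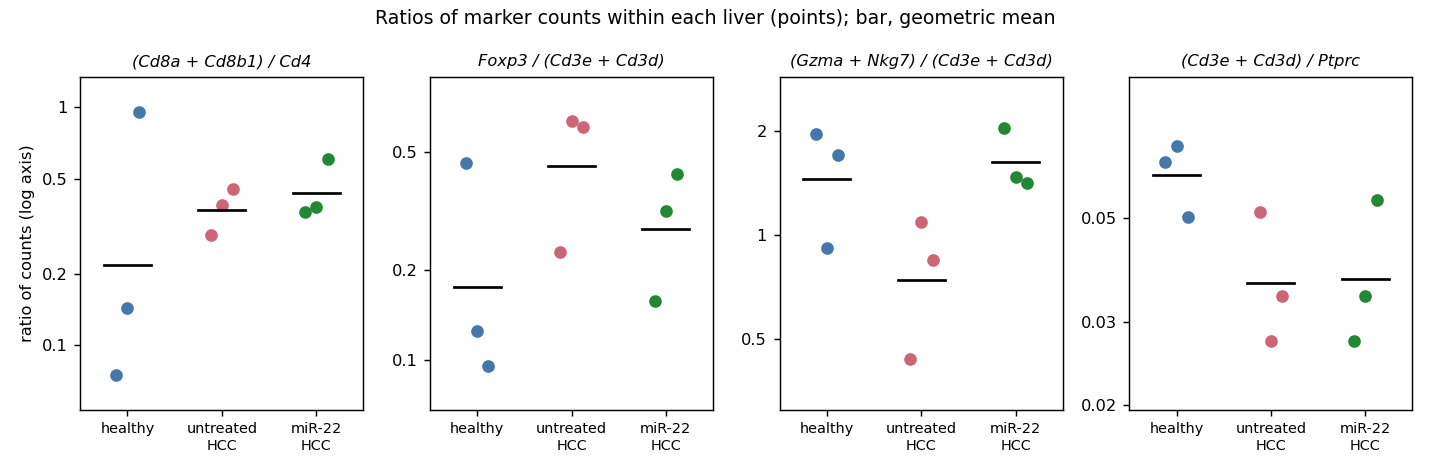
Ratios of marker counts within each liver (vertical log axes), by group, with a bar at the geometric mean of 3 livers. The ratio of Gzma plus Nkg7 to the CD3 chains lies between 1.42 and 2.05 in miR-22-treated HCC and between 0.436 and 1.09 in untreated HCC. Its numerator holds Nkg7, which was called on its own between these groups. In every panel the groups overlap in the comparison of untreated HCC with healthy liver.

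Beside the 9 markers, 155 other genes of lymphocytes and leukocytes were gathered in 5 lists, of which 106 could be tested. In untreated HCC against healthy liver 34 of them rose and 9 fell, a share of 40.6% called, near the 40.8% of all tested genes. With miR-22 only 3 of the 106 rose against untreated HCC and 0 fell, a share of 2.83% where 13.8% of all tested genes were called, with Zap70 and Nrp1 among the 3. Against healthy liver the miR-22-treated livers had 31 genes higher and 4 lower (33%, where 24.0% of all tested genes were called).

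In the list of T cell receptor and signalling genes, 3 of 25 tested genes rose and 2 fell in untreated HCC (20.0% called, against 40.8% of all tested genes, with a median log2 fold change of 0.04). Zap70, the kinase that CD3 chains recruit, had 120, 129 and 151 counts in healthy liver, 47, 30 and 58 in untreated HCC, and 100, 104 and 83 in miR-22-treated HCC. It fell by 2.06 in untreated HCC and rose by 1.499 with miR-22 on the log2 scale (adjusted p = 1.43e-05 and 0.00135, edgeR's quasi-likelihood test), with the miR-22-treated livers between the other groups. Tcf7, a factor of naive and memory T cells, fell by 0.95 in untreated HCC, a call that was lost when library totals replaced TMM scaling (-0.53, adjusted p = 0.0611 in edgeR's quasi-likelihood test). Themis, a signalling adaptor of developing T cells, rose from 3, 2 and 3 counts to 180, 74 and 139 in untreated HCC and 47, 62 and 117 with miR-22, a log2 fold change of 5.08 against healthy liver. S1pr1, which lets lymphocytes leave tissue and is abundant in endothelium, was lower with miR-22 than in healthy liver by a log2 fold change of -0.83. Lcp2, an adaptor that acts below the T cell receptor and in myeloid cells, rose by 0.97. These genes moved in both directions while the CD3 chains and the receptor's constant regions were not called. In healthy liver Zap70 stood at 2.24 CPM per kilobase of merged exons, with Cd3e at 0.194 and Cd3d at 0.232. Which cells made Zap70 and Themis was not tested.

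In the list of cytotoxic and NK genes, 4 of 16 tested genes rose in untreated HCC and 0 fell (25% called, under the 40.8% of all tested genes). They included Itga2, an integrin that NK cells carry and epithelial cells also make (log2 fold change 3.05), and Tyrobp, an adaptor of NK and myeloid receptors (0.97). Klrb1b, a close relative of Klrb1c that encodes an inhibitory receptor, had 0 counts in all 3 healthy livers, 16, 10 and 29 in untreated HCC, and 11, 15 and 12 with miR-22. Against a floor of 3 counts over the group it was at least 13.0-fold higher in untreated HCC and at least 11.7-fold higher in miR-22-treated HCC. Klrb1c stood the other way round in these livers, and because the Klrb1 genes are alike the split of reads between them is uncertain. With miR-22, 0 of the 16 were called against untreated HCC, where 13.8% of all tested genes were called, with a median log2 fold change of 0.46. Another 19 genes of the list, Prf1, Ncr1 and Ifng among them, were too low to test.

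In the list of helper, regulatory and exhausted T cell genes, 3 of 19 rose and 4 fell in untreated HCC (36.8%, against 40.8% of all tested genes). Nrp1, carried by regulatory T cells and by liver endothelium, fell by 1.31 in untreated HCC and rose by 0.79 with miR-22 against it (0.56 and under the fold limit with library totals), and Nt5e, the ecto-enzyme CD73, fell by 1.11 in untreated HCC. The 10 hepatocyte markers moved in the same comparisons: all 10 fell in untreated HCC and 6 rose with miR-22 (60.0%, against 13.8% of all tested genes). Their part in the Nrp1 value was not tested. Lgals1, a lectin made by regulatory T cells and many other cells, rose by 3.95.

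Among genes of T cell exhaustion and activation the counts were low. Pdcd1, the receptor PD-1, had 1, 0 and 0 counts in healthy liver, 5, 6 and 14 in untreated HCC and 3, 9 and 3 with miR-22, and was too low to test. The 25 summed counts of untreated HCC against 1 of healthy liver give a ratio of 17.7 with a counting interval from 2.90 to 728. Ctla4 had 5, 13 and 16 counts over the 3 groups. Lag3 had 12, 14 and 16, then 26, 44 and 24, then 20, 24 and 27 counts, and Il2ra had 32, 9 and 18, then 5, 18 and 19, then 18, 13 and 25. Neither Lag3 nor Il2ra was called in any comparison, with adjusted p of 0.134 and 0.122 in untreated HCC by edgeR's quasi-likelihood test.

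**Figure D4:**
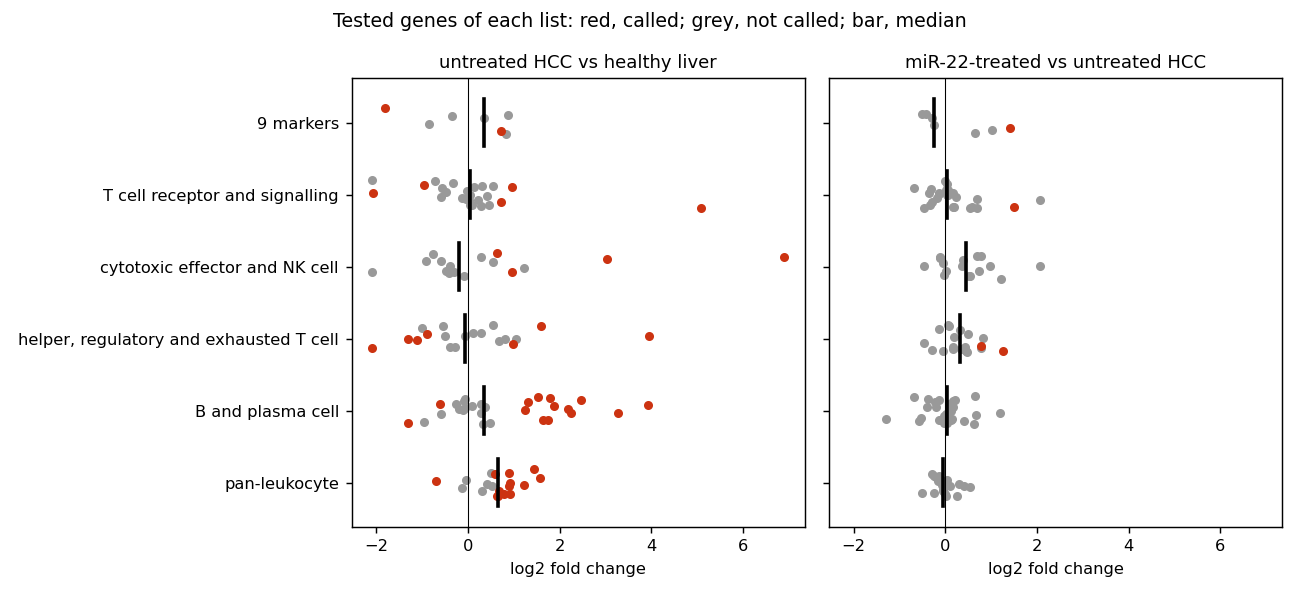
Log2 fold changes (horizontal axes) of the tested genes in the 9 markers and in each list without them, for untreated HCC against healthy liver and for miR-22-treated against untreated HCC. Each point is a gene, red when called, and the bar is the median. In the right-hand panel 1 marker, Nkg7, is red, as are 3 list genes, Zap70 and Nrp1 among them.

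Of 28 tested genes of the B and plasma cell list, 12 rose and 2 fell in untreated HCC (50.0%, against 40.8% of all tested genes). With miR-22 against untreated HCC 0 were called, where 13.8% of all tested genes were called. Of the genes of smallest p in untreated HCC, Blnk, a signalling adaptor of B cells and macrophages, rose by 1.63 and Cd72, an inhibitory receptor, by 1.88. Sdc1, a proteoglycan of plasma cells and of hepatocytes, fell by 0.61, a call close to the fold limit. It was lost with upper-quartile scaling (-0.57), with at least 10 counts in every library (-0.57), without untreated replicate 3 (-0.58) and with library totals in place of TMM scaling (-0.19, adjusted p = 0.132 in edgeR's quasi-likelihood test). Derl3, of the endoplasmic reticulum in secretory cells, rose by 1.97 with miR-22 against healthy liver. Cd79a and Cd79b, the signalling chains of the B cell receptor, Ms4a1, which encodes CD20, and Ighm, the heavy chain of IgM, were not called in any comparison, with log2 fold changes from -0.20 to 0.28 in untreated HCC.

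Some antibody genes stood higher and others did not. Igkc, the kappa light chain, had 30, 18 and 41 counts in healthy liver, 170, 326 and 77 in untreated HCC and 80, 197 and 172 with miR-22. No tumour-bearing liver was as low as any healthy liver, and Igkc rose by 2.25 in untreated HCC and by 2.24 with miR-22 against healthy liver (adjusted p = 0.00338 and 0.00656, edgeR's quasi-likelihood test). Of the 532 exon bases of Igkc, 521 are shared with Gm68839 on the opposite strand, and the libraries did not keep strand. Jchain, the joining chain of IgA and IgM, had 18, 12 and 7, then 47, 106 and 18, then 18, 65 and 68 counts. It rose by 1.74 in untreated HCC with an adjusted p of 0.0477, though the groups overlapped and the call was lost when any 1 of healthy replicates 1, 2 and 3 or untreated replicates 2 and 3 was left out (adjusted p from 0.053 to 0.288). Ighg1 and Igha, the heavy chains of IgG1 and IgA, were singled out after their values were seen. Ighg1 had 6, 5 and 22 counts in healthy liver, 149, 455 and 73 in untreated HCC and 19, 207 and 181 with miR-22, and Igha had 5, 1 and 2, then 34, 64 and 12, then 13, 73 and 48. Their log2 fold changes in untreated HCC were 3.92 and 3.28. Single livers moved these sizes. Without untreated replicate 3, the liver of its group with the most transcripts of these genes, the log2 fold changes were 2.88 for Ighg1, 2.59 for Igha, 1.60 for Igkc and 0.91 for Jchain. Ighg1 reached 4.81 without healthy replicate 3, and Igha reached 4.09 without healthy replicate 1. Ighg2b, the heavy chain of IgG2b, also named after its values were seen, had 0, 2 and 3 counts in healthy liver, 4, 14 and 24 in untreated HCC and 19, 18 and 11 with miR-22. It rose by 2.47 in untreated HCC and by 3.11 with miR-22 against healthy liver (adjusted p = 0.0213 and 0.00917, edgeR's quasi-likelihood test). The first call was made in 10 of 14 fits and was lost without healthy replicate 1 (adjusted p = 0.0725) or 2 (0.0516) or untreated replicate 4 (0.09), and the second was made in 13 of 14. Ighd, the heavy chain of IgD, was not called (-0.96, adjusted p = 0.0987 in edgeR's quasi-likelihood test), and Ighg2c, Ighg3, Iglc1, Iglc2 and Iglc3 were too low to test. None of Igkc, Jchain, Ighg1 and Igha was called between miR-22-treated and untreated HCC, where the log2 fold changes ran from -0.39 to 0.65 and changed sign for all 4 genes when 1 liver was left out.

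**Figure D5:**
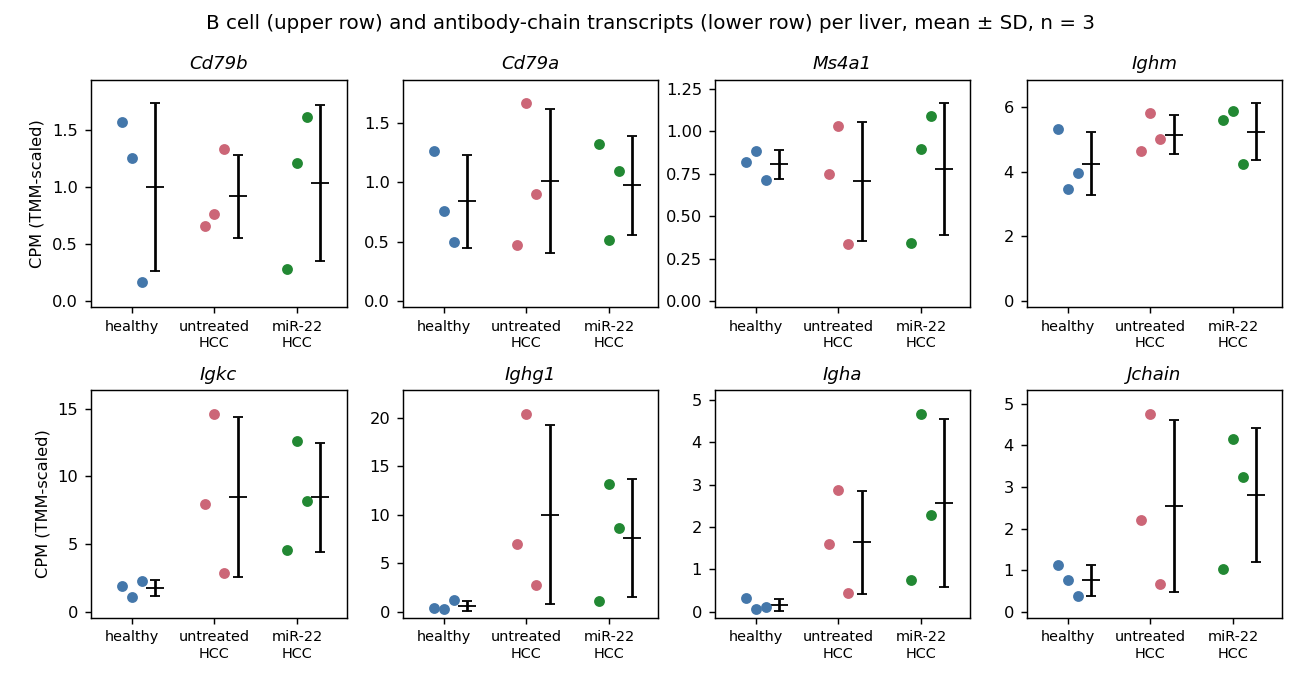
CPM scaled by TMM (vertical axes, each from about 0) in every liver for B cell genes (upper row) and antibody chains (lower row), with mean ± SD of 3. The lower row, 4 antibody genes that were called, shows low values in the 3 healthy livers and a wide spread in both HCC groups. Both HCC groups still overlap healthy liver for Jchain. For Ighg1, miR-22-treated replicate 2 (1.09 CPM) lies below healthy replicate 3 (1.21 CPM). The groups overlap in every panel of the upper row.

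All leukocytes share the genes of the last list. Of 19 tested, 12 rose and 1 fell in untreated HCC (68.4%, against 40.8% of all tested genes). With miR-22 against untreated HCC 0 were called, where 13.8% of all tested genes were called. Ptprc had 365, 336 and 418 counts in healthy liver, 757, 805 and 969 in untreated HCC and 694, 558 and 696 with miR-22. It rose by 0.68 in untreated HCC (SD of 1.03 CPM around 22.4 in healthy liver and 0.381 around 35.9 in untreated HCC) and did not pass the test with miR-22, where the log2 fold change was 0.01. Coro1a, an actin regulator of leukocytes, rose by 1.44, Cd52, a surface peptide of mature leukocytes, by 1.58, and Arhgdib, a regulator of small GTPases in blood cells, by 0.91. Among other blood cells, all 6 tested neutrophil markers rose in untreated HCC, with sums from 2.27 to 5.34 CPM in healthy liver and from 21.0 to 27.7 CPM in untreated HCC, and 9 of 20 macrophage markers rose and 2 fell. The CD3 chains were not called in any comparison beside these rises.

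The spread of the markers between livers of 1 group was near counting error for some and above it for others. Dividing chi-square by its 6 degrees of freedom gives about 1 when livers differ only by counting error. Klrb1c stood at 0.997, Nkg7 at 1.28, Cd3e at 1.33 and Cd3d at 1.92. Cd4 stood at 2.40, Gzma at 3.03, Foxp3 at 3.30, Cd8b1 at 3.39 and Cd8a at 4.43. Over the 9 livers, the 3 genes closest in level to each tested marker had Pearson correlations from 0.908 to 0.965, and none was in the lymphocyte lists. At these counts such likeness describes the livers and is no finding about the genes.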

How the data were processed

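Whole-liver RNA of 9 female mice was sequenced as non-stranded paired-end libraries. According to the labels and the study's methods, the authors checked reads with FastQC 0.11.7, estimated transcript abundance with Salmon on GRCm39, summed it to genes with tximport and deposited raw counts per gene. The authors' normalized table and DESeq2 comparisons were not used here. Counts were fitted in edgeR 4.0.16 (R 4.3.3) with TMM scaling, filterByExpr and the quasi-likelihood test on all 3 groups at once, with Benjamini-Hochberg adjustment over 15717 genes. Genes were called at an adjusted p under 0.05 and a fold over 1.5. CPM values use TMM library sizes, and intervals for fold changes use the test's degrees of freedom. Intervals on summed counts and floors (3 counts) cover counting error only. Library totals ran from 16664659 to 23908392.

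The 9 markers were always named, as were defining genes of T, NK and B cells by role and, from each list, up to 3 called genes of smallest p per comparison. The members and lists were chosen with earlier results of these data known, and no list was tested as a set. Alternatives were DESeq2 1.42.0, limma-trend (limma 3.58.1), other scalings and filters, 2-group fits, a replicate block and leaving out each liver. Coordinates are from GENCODE M39 on GRCm39. The test was tried on simulated data first. All livers of a group differed by more than sampling noise (chi-square per degree of freedom from 6.13 to 28.4). Some results on named genes are not reported here.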

Additional observations from a re-analysis of the deposited data

How the results depend on the processing

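Of 303 alternative values for single markers, 268 kept their direction and side of the limit, 26 lost a call, 2 gained one and 7 changed sign, none of the 7 called. The 303 include values of Cd8b1 and Klrb1c, too low to test, and most of the 268 belong to results that were never called. The calls themselves were made in 8 of 16 fits for Cd4, 14 of 15 for Gzma, and 10 of 16 and 6 of 16 for Nkg7. In untreated HCC against healthy liver 1 marker was called with DESeq2, no filter, at least 10 counts in every library, 2-group fits or the replicate block, and 1 to 2 when 1 liver was left out. With miR-22 against untreated HCC 0 were called with the replicate block (Nkg7 1.38, adjusted p = 0.0556) and 0 to 1 without 1 liver. Against healthy liver 0 were called with DESeq2, 2-group fits, the replicate block or limma-trend, and 0 to 1 without 1 liver. The block kept Gzma (log2 fold change -1.61, adjusted p = 0.0469) and lost Cd4 (0.0627). Of other genes named, it lost Tcf7 (-0.79, adjusted p = 0.0646), Sdc1 (-0.53, under the fold limit), Jchain (2.14, adjusted p = 0.0701) and Ighg2b (1.88, adjusted p = 0.142) in untreated HCC, and Tcf7 (-0.78, adjusted p = 0.0952) and Ighg2b (2.59, adjusted p = 0.0716) with miR-22 against healthy liver. Replicate numbers did not pair the livers: deviations of same-numbered untreated and miR-22-treated livers correlated between -0.235 and -0.121. The block took all called genes from 6417, 2167 and 3772 to 5863, 1745 and 3044. With no fold limit miR-22-treated livers had 3777 called genes against untreated HCC and 5732 against healthy liver, and leaving out 1 liver gave 1433 to 2660 in the former, lowest without miR-22-treated replicate 3. Listed lymphocyte genes called against untreated HCC numbered 5 with no filter, 6 with library totals, 7 with no fold limit and 3 to 5 without 1 liver.

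The markers' median in untreated HCC against healthy liver was 0.78 with library totals and 0.14 to 0.50 without 1 liver. With miR-22 against untreated HCC it was 0.59 with no filter and 0.55 with at least 10 counts, where 9 or 2 markers enter by construction, -0.48 with library totals and -0.399 to 0.044 without 1 liver. Against healthy liver it was 0.79 with at least 10 counts and -0.12 to 0.55 without 1 liver. Library totals in place of TMM, chosen after seeing the data, shifted all genes by 0.42, -0.24 and 0.19 and moved the share of higher calls from 55.7% to 80.0%, 60.4% to 27.8% and 70.6% to 85.2%. The markers called kept their directions. That scaling turned Nkg7 in untreated HCC against healthy liver to 0.077 and Cd3e with miR-22 against healthy liver to 0.041. Leaving out 1 liver gave Cd8a -0.46 to 0.044 with miR-22 against untreated HCC, where 0.002 came without miR-22-treated replicate 3, and against healthy liver Cd3e -0.39 to 0.12, Cd3d -0.12 to 0.52 and Foxp3 -0.24 to 1.55. The cause of these shifts was not tested. Depth limits these results: every marker but Cd4 had at most 42 counts in any liver.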
